A study of Mus musculus with 72 samples.

Results

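The genes described here are the neuropeptide Y receptor gene Npy2r, the galanin receptor gene Galr1, the cannabinoid receptor gene Cnr1, the orphan receptor gene Gpr101, the corticotropin-releasing factor (CRF) receptor genes Crhr1 and Crhr2, and the nociceptin receptor gene Oprl1. They were chosen by name, and all 7 were held both by the filtered 10X table (17231 genes) and by the table of manually sorted cells (24256 genes). The study profiled single dorsal raphe (DR) neurons of adult mice with a history of Pet1 (Fev) expression, the transcription factor that marks the serotonin lineage. The 10X table held cells of the full DR in 2 sets of 869 and 1481, and the manual table held 70 cells in 8 groups defined by a Cre driver and a part of the DR.

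By the labels, 2 libraries made up the 10X table. The first came from Pet1::Flpe+/-; hM3Dq+/+ mice with a mean age of postnatal day 65.5, and the second from mice carrying En1::cre+/-, Pet1::Flpe+/- and RC::FrePe+/- with a mean age of postnatal day 59. Several mice were pooled for each library, and En1::cre limits the second to cells of the isthmus and rhombomere 1 lineage. All manual cells carried Pet1::Flpe+/- and RC::FrePe+/- together with a single heterozygous Cre allele. The Sert::cre+/- cells came from the dorsolateral (n = 10), dorsomedial (n = 9), ventromedial (n = 8) and caudal (n = 6) DR at postnatal day 63 or 90, the caudal cells at day 63 only. The P2ry1::cre+/- cells came from the caudal DR (n = 10, postnatal day 62 to 74). The Npy2r::cre+/- cells came from the caudal (n = 10) and rostral (n = 9) DR at postnatal day 77 or 87, and the Crh::cre+/- cells from the rostral DR (n = 8, postnatal day 83 or 119). Sert::cre and Crh::cre are bacterial artificial chromosome transgenes, whereas Npy2r::cre and P2ry1::cre are knock-ins at the genes themselves, so a cell is labelled by any past activity of the driver.

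All of the receptors described here belong to the G protein-coupled receptor superfamily. Npy2r, Galr1, Cnr1 and Oprl1 encode receptors that couple mainly to inhibitory G proteins, which lower cyclic AMP, open inwardly rectifying potassium channels and close presynaptic calcium channels. The CRF receptors couple mainly to the stimulatory G protein: Crhr1 is the higher-affinity receptor for CRF itself, whereas Crhr2 prefers the urocortins, and both have been studied in the DR for their part in stress responses. Gpr101 is an X-linked receptor classed as an orphan.

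Every cell of the 10X table had a UMI of Fev. Depth ranged from 12320 to 134079 UMIs per cell (median 59646) and from 756872 to 7664103 reads per manual cell. The 2 sets of 10X cells carry different barcode endings and had no barcode in common. The labels do not tie an ending to a library. Xist was detected in 99.7% of the first set and in 0 cells of the second, and Ddx3y in 0 cells of the first and 96.8% of the second, so that barcode set and sex cannot be told apart. If the endings stand for the libraries, the sets also differ in genotype, mean age and run, which cannot be told apart from sex. With no animal named for any cell, the 10X table was treated as 1 sample and each manual group as 1 sample of several cells. No p-value is given for this reason, and intervals cover counting error only.

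The promoters of Npy2r and Crhr2 are shown because these were the members highest in the same cell class, and that of Cnr1 because its levels ran the other way along Tph2. Each run is the 250 bases before the gene start in RefSeq (GRCm38.p6, the build called mm10 elsewhere), read 5′ to 3′ on the gene's strand. They cover chr3:82548086-82548335 (minus strand), chr6:55133017-55133266 (minus strand) and, for the most upstream of the 3 Cnr1 starts, chr4:33924014-33924263 (plus strand). Capitals mark matches on either strand to CCGGAA (the core bound by ETS factors, the family of Pet1), AGGTCA (the core site of many nuclear receptors), TGACGTCA (the cyclic AMP response element) or TATAAA (the TATA box).
Npy2r: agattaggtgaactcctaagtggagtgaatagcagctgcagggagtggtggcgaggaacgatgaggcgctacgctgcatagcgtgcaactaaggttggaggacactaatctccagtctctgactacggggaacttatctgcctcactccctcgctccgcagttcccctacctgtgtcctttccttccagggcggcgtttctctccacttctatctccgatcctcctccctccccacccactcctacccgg
Crhr2: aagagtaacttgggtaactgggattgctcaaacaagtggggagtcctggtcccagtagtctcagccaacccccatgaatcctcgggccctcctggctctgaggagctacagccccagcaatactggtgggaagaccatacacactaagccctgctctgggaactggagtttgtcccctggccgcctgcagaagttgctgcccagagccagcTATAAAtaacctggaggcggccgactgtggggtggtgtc
Cnr1: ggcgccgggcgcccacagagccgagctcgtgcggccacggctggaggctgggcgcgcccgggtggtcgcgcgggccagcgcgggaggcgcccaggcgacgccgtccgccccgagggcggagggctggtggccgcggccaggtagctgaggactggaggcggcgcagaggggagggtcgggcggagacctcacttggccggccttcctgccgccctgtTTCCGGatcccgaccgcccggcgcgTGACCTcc
The Npy2r window held none of the 4 motifs. The Crhr2 window held TATAAA starting 39 bases before the gene start, a motif present in 12.4% of 32851 windows of the same length. The Cnr1 window held the ETS core 33 bases before the start (12.0% of windows) and AGGTCA 8 bases before it (14.0% of windows), both on the reverse strand, and its GC content was 79.2% against 56.8% for Npy2r and 57.6% for Crhr2. TGACGTCA was in 1.55% of windows and in none of these 3. The windows of the other 2 Cnr1 starts held none of the motifs, and the start shown lies before the GENCODE start of the gene. No count in either table tells which start of Cnr1 or Crhr2 was used.

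The genes lie apart in the genome (mm10, GENCODE M21 annotation). Npy2r is at chr3:82538383-82548084 on the minus strand, Galr1 at chr18:82392380-82406777 on the minus strand and Cnr1 at chr4:33924593-33948831 on the plus strand. Gpr101 is at chrX:57496668-57503757 on the minus strand. Crhr1 is at chr11:104132855-104175523 on the plus strand, Crhr2 at chr6:55090049-55133016 on the minus strand and Oprl1 at chr2:181715016-181720985 on the plus strand. No gene of this annotation overlapped any of them on either strand.

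The first question was whether the receptors follow the transmitter genes. Tph2 (tryptophan hydroxylase, serotonin synthesis), Gad2 (glutamate decarboxylase, GABA synthesis) and Slc17a8 (the vesicular glutamate transporter VGLUT3) were used to place the 10X cells in 5 classes. Levels are given as UMIs per 1000000 UMIs (CPM). Cells under 500 CPM of Tph2 were called Tph2-low (131 cells, median depth 27329 UMIs). Of the others, 879 had at least 50 CPM of Gad2 alone (Gad2 class, median 61913 UMIs), 771 at least 50 CPM of Slc17a8 alone (Slc17a8 class, 61117), 245 both (61677) and 324 neither (55959.5). The cuts divide continuous ranges, and 421 cells lay within 1.5 times of a cut.

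The receptors fell into different patterns. Npy2r and Crhr2 were higher in the Slc17a8 class and in the class with both than in the Gad2 class. The Tph2-low cells were themselves rich in Slc17a8 (455 CPM against 335.5 CPM in the Slc17a8 class and 253 CPM in the class with both). Cnr1, Galr1 and Gpr101 were highest in the Tph2-low cells. Crhr2 nonetheless had no UMI in the Tph2-low cells, Oprl1 was detected in nearly every class alike, and Crhr1 was hardly detected anywhere.

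Npy2r encodes the Y2 receptor, best known as a presynaptic receptor that restrains transmitter release. Its summed level was 6.26 CPM (95% exact Poisson interval 5.61 to 6.97) in the Gad2 class and 37.0 CPM (35.2 to 38.8) in the Slc17a8 class. In cells with both transmitter genes it was 30.7 CPM (27.9 to 33.6), in cells with neither 6.61 CPM (5.46 to 7.93), and in the Tph2-low cells 32.2 CPM (26.7 to 38.5). The Slc17a8 class and the class with both thus stood above the Gad2 class. The Slc17a8 class was 5.91-fold above the Gad2 class (log2 ratio 2.56, interval 2.39 to 2.74). A UMI was found in 54.2% (95% exact Clopper-Pearson interval 50.6 to 57.8) of Slc17a8 class cells and in 22.1% (19.4 to 25.0) of Gad2 class cells. With each cell thinned to 20000 UMIs, which left out 9 and 13 cells, these shares were 37.1% and 9.82%. The Tph2-low cells were 0.70 higher on the log2 scale (0.43 to 0.96) than all other cells, a difference that was 1.52 in the first barcode set and 0.23 in the second.

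Crhr2, the urocortin-preferring CRF receptor, showed the same order among the classes with Tph2. Its level was 3.30 CPM (2.83 to 3.82) in the Gad2 class, 20.8 CPM (19.5 to 22.2) in the Slc17a8 class, 19.8 CPM (17.5 to 22.2) with both and 4.43 CPM (3.49 to 5.53) with neither. The Slc17a8 class was 6.31-fold above the Gad2 class (log2 ratio 2.66, 2.42 to 2.90), and the class with both did not differ from the Slc17a8 class beyond counting error (log2 ratio -0.07, -0.27 to 0.12). Crhr2 parted from Npy2r in the Tph2-low cells, where 0 of 131 cells had a UMI. By the limit of 3 counts used here for a count of 0, this allows a share of cells with a UMI of up to 2.29%, and it sets no limit on cells that express the gene. Counted against a floor of 3 UMIs over the group, the Tph2-low cells were at least 14.3-fold lower than all other cells, which held 11.4 CPM. This bound is -3.84 on the log2 scale, or -3.54 with the counting error of the other cells. It was -2.91 and -2.83 within the first and second barcode sets, and with doubled cuts the class held Crhr2 UMIs and the log2 ratio was -2.62. In contrast, 50.6% (47.0 to 54.2) of Slc17a8 class cells and 13.3% (11.1 to 15.7) of Gad2 class cells had a Crhr2 UMI, or 27.6% and 5.54% after thinning.

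Crhr1, the main receptor for CRF, totalled 20 UMIs in 19 of the 10X cells. Its level was between 0.0575 and 0.151 CPM in the 4 classes with Tph2 and 1.33 CPM (0.432 to 3.11) in the Tph2-low cells, which rests on 5 UMIs in 5 cells. No cell held more than 2 UMIs of Crhr1.

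Cnr1 encodes the CB1 receptor, the principal cannabinoid receptor of neurons. Its level was 6.45 CPM (5.78 to 7.16) in the Gad2 class, 9.53 CPM (8.66 to 10.5) in the Slc17a8 class, 18.5 CPM (16.3 to 20.8) with both and 6.78 CPM (5.61 to 8.12) with neither. In the Tph2-low cells it was 79.1 CPM (70.3 to 88.6), 8.87-fold above all other cells (log2 ratio 3.15, 2.96 to 3.33). A UMI was found in 76.3% (68.1 to 83.3) of Tph2-low cells, against 17.3% to 35.9% in the other classes, although the Tph2-low cells were the shallowest. The difference between the Slc17a8 and Gad2 classes was 0.56 on the log2 scale (0.36 to 0.77) and shrank to 0.11 (-0.11 to 0.34) when all cuts were doubled.

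Galr1, a galanin receptor, was found almost solely in the Tph2-low cells, which held 105 of its 111 UMIs. The Tph2-low level was 28.0 CPM (22.9 to 33.8), and 40 of 131 cells (30.5%, 22.8 to 39.2) had a UMI. All other cells together held 6 UMIs (0.0455 CPM), and the Gad2 class held 0 UMIs in 879 cells, for which 3 counts allow a share of cells with a UMI of up to 0.341%. The ratio was 614-fold, with a counting interval from 8.09 to 10.7 on the log2 scale. Within the Tph2-low cells the cells with a UMI held a median of 82.7 CPM.

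Gpr101 was likewise highest in the Tph2-low cells, at 16.0 CPM (12.2 to 20.6), while the remaining cells held 2.22 CPM (log2 ratio 2.85, 2.42 to 3.25). It was 0.843 CPM (0.615 to 1.13) in the Gad2 class, 3.13 CPM (2.64 to 3.69) in the Slc17a8 class, 2.04 CPM (1.37 to 2.91) with both and 4.14 CPM (3.24 to 5.21) with neither. Only 17 of 131 Tph2-low cells (13.0%, 7.74 to 20.0) had a UMI, and these held a median of 124 CPM. Of all Gpr101 UMIs, 92.0% were in the 118 cells (5% of cells) that held most. The log2 ratio of the Slc17a8 to the Gad2 class was 1.89 (1.40 to 2.41), and it moved to 0.81 (0.20 to 1.43) with doubled cuts and to 2.60 (2.07 to 3.18) with halved cuts.

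Oprl1, the receptor for the opioid-like peptide nociceptin, was the only member found in most cells of every class. Its level was 51.8 CPM (49.9 to 53.8) in the Gad2 class, 51.0 CPM (48.9 to 53.1) in the Slc17a8 class, 58.4 CPM (54.6 to 62.5) with both and 50.3 CPM (47.0 to 53.7) with neither. The Gad2 and Slc17a8 classes were level within counting error (log2 ratio -0.02, -0.10 to 0.06). The Tph2-low cells stood at 72.4 CPM (64.1 to 81.5), 0.48 higher on the log2 scale (0.30 to 0.65) than all other cells. Cells with a UMI made up 87.0% to 93.4% of each class.

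**Figure D1:**
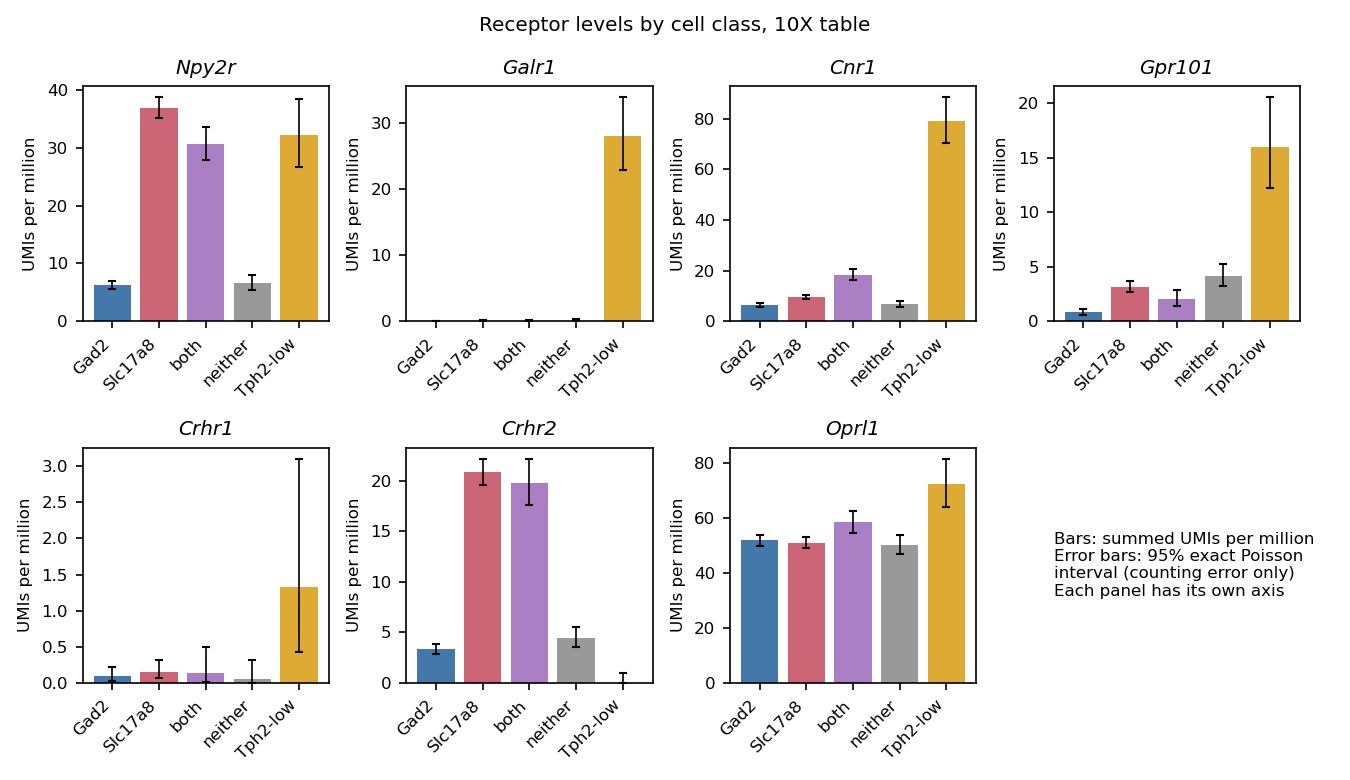
Summed level (CPM) of each receptor gene in the 5 classes of 10X cells, with 95% exact Poisson intervals and a separate axis for each gene. Npy2r and Crhr2 are high in the Slc17a8 class and the class with both (30.7 to 37.0 and 19.8 to 20.8 CPM), the Tph2-low cells hold Npy2r at 32.2 CPM but 0 UMIs of Crhr2, Galr1, Cnr1 and Gpr101 peak in the Tph2-low cells, and Oprl1 lies between 50.3 and 72.4 CPM throughout.

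These differences were read against all genes. Of 12439 genes with at least 100 UMIs in the Gad2 and Slc17a8 classes together, 3.15% were at least 2-fold higher in the Slc17a8 class and 3.15% at least 2-fold lower. Of the 5 members that reached the minimum, 3 were higher (Npy2r, Gpr101 and Crhr2) and 0 lower. Gpr101 reached it only through the Slc17a8 class (145 and 45 UMIs), so that its place in this count was set by the minimum. Of 12901 genes compared between the Tph2-low and all other cells, 9.32% were at least 2-fold higher and 6.22% lower, with a median log2 ratio of 0.18. Cnr1 and Gpr101 were among the higher genes and Crhr2 among the lower. Galr1 reached the minimum only through the Tph2-low cells (105 of its 111 UMIs), so that it had to be among the higher genes and is not counted against this background.

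The Tph2-low cells also differed in other markers. The summed level of 7 serotonin neuron genes, Tph2 among them, was 1485 CPM there against 8937 to 10299 CPM in the other classes. Tph2, whose cut defines the class, was itself 150 CPM there against 2490 to 3198 CPM. Part of the difference in the sum was thus fixed by the cut. The 3 oligodendrocyte genes in the table, all detected, summed to 69.0 CPM against 28.4 to 33.1 CPM, and the glutamate and GABA transporter genes of other neurons (Slc17a6 and Slc32a1, both detected) to 7.45 CPM against 0.339 to 0.843 CPM. A UMI of these transporter genes was in 3.82% of Tph2-low cells and in 1.63% to 2.39% of the cells of the other classes. Gfap and Slc1a3 of astrocytes, Cx3cr1, C1qa and Csf1r of microglia, and Cldn5 and Pecam1 of vessels were at 0 UMIs in the Tph2-low cells. The part of other cell types in the receptor levels was not tested.

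In each barcode set the Slc17a8 class stood above the Gad2 class for Npy2r and Crhr2, with shifts in size. Npy2r was lower in the first set than in the second within the Gad2 class (2.61 against 8.18 CPM), the Slc17a8 class (29.3 against 40.8 CPM) and the class with both (17.8 against 35.5 CPM). In the Tph2-low cells it was 37.5 CPM (29.0 to 47.7) in the first and 27.6 CPM (20.8 to 35.9) in the second set, with overlapping intervals. The class log2 ratio of Npy2r was 3.49 in the first and 2.32 in the second. Crhr2 ran the other way, with 25.9 CPM in the first and 18.3 CPM in the second set of the Slc17a8 class. Galr1 in the Tph2-low cells was 34.1 and 22.6 CPM, with overlapping intervals (26.0 to 43.9 and 16.5 to 30.2), and Cnr1 there was 75.5 and 82.2 CPM. Crhr2 had 0 UMIs in the Tph2-low cells of both sets. The log2 ratio of the Slc17a8 to the Gad2 class was 1.13 in the first set and 0.31 in the second for Cnr1, and 3.51 and 1.46 for Gpr101.

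The same cells were also divided by level rather than class, which is another view of the class results and not a separate test. The steps of Gad2 and Slc17a8 reused the class cuts. The lowest of 5 equal parts by Tph2 held every Tph2-low cell, so that high levels there partly restate the class result. The higher parts held no Tph2-low cell. When the cells were split into 5 equal parts by Tph2, Crhr2 rose at each step from 4.04 CPM (3.19 to 5.05) in the lowest part to 19.1 CPM (17.6 to 20.7) in the highest. The intermediate parts held 7.04, 9.44 and 12.5 CPM, and no 2 neighbouring intervals overlapped. Cnr1 ran the other way, from 35.7 CPM (33.0 to 38.5) in the lowest part to 8.28 CPM in the next and 4.97 CPM (4.21 to 5.82) in the highest, although its middle parts (6.83 and 7.38 CPM) did not differ beyond their intervals. Npy2r was not monotonic, at 17.9, 11.3, 15.4, 22.8 and 30.8 CPM. Gpr101 fell from 10.1 CPM in the lowest part to 0.523 and 0.806 CPM in the upper 2 parts, and Galr1 was 5.67 CPM in the lowest part and at most 0.0686 CPM above it. Median depth rose along the same parts from 39739.5 to 69248 UMIs, and its part in the CPM values was not tested.

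Along Slc17a8, Npy2r rose from 4.58 CPM (4.00 to 5.22) in the 857 cells without a UMI to 10.3, 27.5 and 39.7 CPM (37.8 to 41.6) in the 757 cells with at least 200 CPM. Crhr2 rose along the same steps from 3.18 to 4.41, 13.5 and 22.6 CPM. Along Gad2 both fell, Npy2r from 30.5 CPM in the 946 cells without a UMI to 12.5 CPM at 200 CPM or more and Crhr2 from 16.9 to 6.67 CPM. For both genes the last 2 steps of Gad2 (50 to 200 CPM, and above) did not differ beyond their intervals. Oprl1 stayed between 50.5 and 55.5 CPM on every step of Gad2 and Slc17a8.

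**Figure D2:**
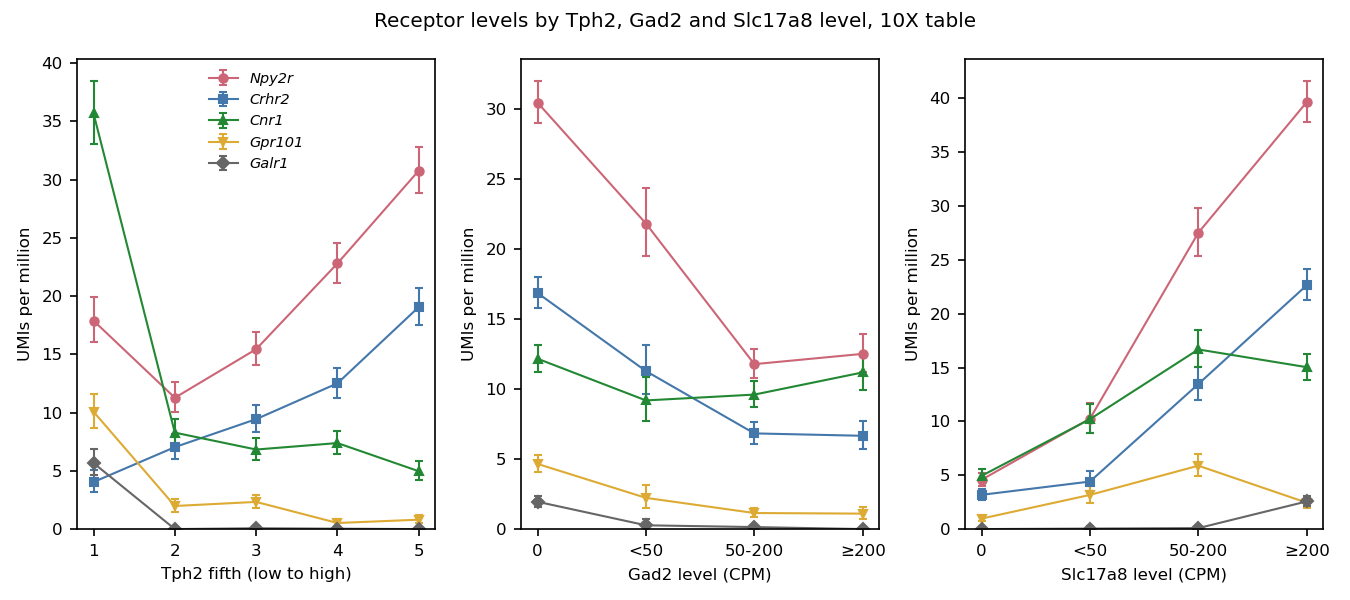
Summed level (CPM) of 5 receptor genes in cells split by Tph2 (5 equal parts), Gad2 and Slc17a8 level, with 95% exact Poisson intervals. Crhr2 climbs with Tph2 from 4.04 to 19.1 CPM while Cnr1 falls from 35.7 to 4.97 CPM, and Npy2r climbs with Slc17a8 from 4.58 to 39.7 CPM.

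Marker genes of Pet1 neuron subtypes divided the classes further. Sets were the cells with at least 100 CPM of a marker. Sets can share cells, and they are not a clustering. The 70 cells with Met, a receptor tyrosine kinase gene, were mostly of the Slc17a8 class (66 cells), yet Npy2r had 0 UMIs in them (3 counts allow a share of cells with a UMI of up to 4.29%), and Crhr2 had 4 UMIs (1.24 CPM, 0.339 to 3.19). This separates them from other Slc17a8-rich sets. In the 117 cells with Rorb, a nuclear receptor gene, Npy2r was 31.1 CPM (27.2 to 35.3) and Crhr2 28.6 CPM (24.9 to 32.6), with a Crhr2 UMI in 76.9% of cells, the highest share of Crhr2 among the 11 sets. In the 522 cells with Cbln2, a synaptic organizer gene, Npy2r was 40.3 CPM (38.1 to 42.5) and Crhr2 20.8 CPM (19.2 to 22.4). In the 178 cells with Maf, a transcription factor gene, Crhr2 was similar at 23.1 CPM (20.3 to 26.2), while Npy2r was 5.86 CPM (4.49 to 7.52). Hence the 2 receptors came apart in the Maf cells and in opposite order to the cells with Pou3f2, a POU factor gene, where Npy2r was 40.3 CPM (34.0 to 47.3) and Crhr2 1.10 CPM (0.299 to 2.81). Of the 89 Pou3f2 cells, 32 were Tph2-low, the class with 0 Crhr2 UMIs, and the median depth of the set was 37005 UMIs against 60042 in the Maf set. The part of either in this difference was not tested.

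Among the sets with the largest share of Gad2 class cells, the 102 cells with Trh (thyrotropin-releasing hormone) were low in Npy2r (2.52 CPM, 1.38 to 4.23) and Crhr2 (0.900 CPM, 0.292 to 2.10). The 330 cells with Pdyn (prodynorphin) had 24.6 CPM of Cnr1 (22.4 to 27.0) and 8.55 CPM of Gpr101 (7.28 to 9.99), and 55.5% of them had a Cnr1 UMI. The 342 cells with Kit held 4.09 CPM of Cnr1 (3.28 to 5.03) and 0.139 CPM of Gpr101, but 19.8 CPM of Crhr2 (17.9 to 21.8). Cells high in Pdyn and cells high in Kit therefore differed in opposite directions for Cnr1 and Crhr2, which was 9.52 CPM (8.17 to 11.0) in the Pdyn set.

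Galr1 was concentrated in the 69 cells with Nfib, a nuclear factor gene, of which 55 were Tph2-low. There it reached 44.1 CPM (35.2 to 54.5) with a UMI in 46.4% of cells, Cnr1 reached 83.0 CPM (70.6 to 96.9), and Crhr2 had 0 UMIs. Among the 11 sets Gpr101 was highest in the 154 cells with Tmeff2, a transmembrane protein gene, at 31.2 CPM (26.9 to 35.9) with a UMI in 42.9% of cells, against 6.22 CPM (3.22 to 10.9) in the Nfib cells. In the 58 cells with UMIs of both Ecel1 (an endopeptidase gene) and Cxcl14 (a chemokine gene), Gpr101 was 32.9 CPM (26.3 to 40.7) against 2.01 CPM (1.77 to 2.26) in the 2292 others. The pair was taken because both genes are named beside Gpr101 for a subtype of these neurons. Cxcl14 was also among the genes most like Gpr101 over these cells (r = 0.40), so that the contrast follows in part from the choice. The 58 cells held Cnr1 at 37.9 CPM (30.8 to 46.2) and little Crhr2 (3.10 CPM, 1.34 to 6.10). The median depth of the Nfib and Tmeff2 sets was 27298 and 36675 UMIs, lower than that of all cells.

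**Figure D3:**
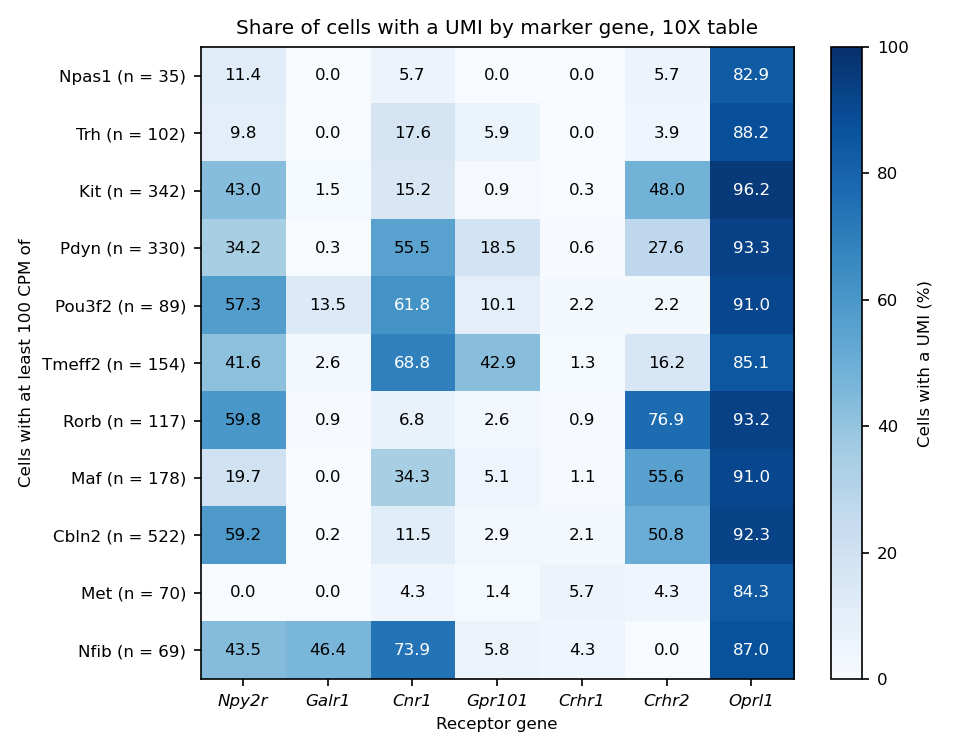
Percent of 10X cells with a UMI of each receptor gene (columns) among cells with at least 100 CPM of a marker gene (rows, with the number of cells). Crhr2 ranges from 0 in the Nfib cells to 76.9% in the Rorb cells, Npy2r is 0 in the Met cells, Galr1 stands out in the Nfib cells at 46.4% and Oprl1 is above 80% in every row.

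The second question was which receptors shared cells. Among the 850 cells with an Npy2r UMI, 396 also had Crhr2 (46.6%, 43.2 to 50.0), against 18.1% (16.2 to 20.1) of cells without Npy2r. After thinning the shares were 27.2% and 11.4%. Within the Slc17a8 class the gap was 66.5% (61.8 to 71.0) against 31.7% (26.9 to 36.9), whereas in the class with both transmitter genes the shares were 45.7% and 45.8%. The gap between cells with and without Npy2r was thus wider than counting error in the Slc17a8 class, while the intervals overlapped in the class with both.

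Cnr1 and Crhr2 were found together less often. Of 588 cells with Cnr1, 105 had Crhr2 (17.9%, 14.8 to 21.2), against 31.9% (29.7 to 34.1) of the rest, and the shares after thinning were 5.52% and 16.6%. Within the Slc17a8 class they were 26.3% (19.9 to 33.5) and 57.7% (53.6 to 61.7). Within the Gad2 class the order turned, to 17.8% (12.3 to 24.4) and 12.3% (9.93 to 14.9), and in the class with neither to 16.1% (7.62 to 28.3) and 14.6% (10.6 to 19.4), both with overlapping intervals.

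Gpr101 was mostly found in cells with Cnr1: 101 of the 146 cells with a Gpr101 UMI had Cnr1. Gpr101 was detected in 17.2% (14.2 to 20.5) of cells with Cnr1 and in 2.55% (1.87 to 3.40) of the rest, or 15.1% and 2.20% after thinning. The gap was seen in the Slc17a8 class (22.9% against 3.02%), in the class with both (14.8% against 0.637%) and in the class with neither (37.5% against 4.85%). In the Tph2-low cells it was 15.0% (8.65 to 23.5) against 6.45% (0.791 to 21.4), with overlapping intervals.

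Galr1 was detected with Cnr1 in 31 of its 44 cells (70.5%, 54.8 to 83.2), against 24.2% of cells without Galr1. Within the Tph2-low cells, however, Cnr1 was in 72.5% (56.1 to 85.4) of cells with Galr1 and 78.0% (68.1 to 86.0) of cells without it, and these intervals overlap. Galr1 and Gpr101 shared 1 cell of the Tph2-low class, where Gpr101 was in 1 of the 40 cells with Galr1 (interval 0.0633% to 13.2%) and in 17.6% (10.4 to 27.0) of the 91 others, with intervals that overlap. Npy2r was in 41 Tph2-low cells, of which 37 (90.2%, 76.9 to 97.3) had Cnr1, against 70.0% (59.4 to 79.2) of the other Tph2-low cells, and these intervals overlap as well.

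Leaving out the broadly detected Oprl1, the number of the 6 other receptors with at least 1 UMI averaged 0.577 per cell in the Gad2 class, 1.36 in the Slc17a8 class, 1.44 with both, 0.614 with neither and 1.55 in the Tph2-low cells. No UMI of any of the 6 was found in 57.3% of Gad2 class cells and in 19.8% of Slc17a8 class cells. After thinning the Tph2-low cells had 1.42 receptors with a UMI per cell and the Gad2 class 0.259. Many of these detections rest on 1 UMI (291 of 850 cells for Npy2r, 252 of 588 for Cnr1 and 282 of 667 for Crhr2). A UMI of the 3 oligodendrocyte genes, markers of another cell type, was found in 69.8% to 78.2% of the cells of each class. The other marker lists were rarer over all cells: astrocyte 4.68%, vessel 3.36%, other neurons 2.26%, microglia 1.57%, dopamine neuron 1.40% and blood 1.02%. These counts are therefore of UMIs, and the part of free RNA in them was not tested.

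Ligands were also compared with their receptors. Galanin (Gal) and its receptor Galr1 shared 1 of the 569 cells with Gal, and Gal itself was 1.86 CPM in the Tph2-low cells against 11.6 CPM elsewhere. Crh, which encodes CRF, was detected in 314 cells, and 163 of these had Crhr2 (51.9%, 46.2 to 57.6), against 24.8% (22.9 to 26.7) of cells without Crh. The Crh gap was present in the Slc17a8 class (74.3% against 46.7%), in the class with both (77.6% against 35.8%) and in the Gad2 class (25.0% against 11.5%), and in all cells after thinning (33.5% against 13.3%). In the Gad2 class the thinned shares were 10.0% (3.76 to 20.5) and 5.21% (3.78 to 6.98), with overlapping intervals, and in the class with neither the intervals overlapped before thinning (29.2%, 12.6 to 51.1, and 13.7%, 9.99 to 18.1). The urocortin genes were rare. Of 49 cells with Ucn2, 36.7% (23.4 to 51.7) had Crhr2 against 28.2% (26.4 to 30.1) of the rest, and of 13 cells with Ucn, 23.1% (5.04 to 53.8) against 28.4% (26.6 to 30.3), both with overlapping intervals. Crhbp, which encodes the CRF-binding protein, went the other way from Crh over all cells. Crhr2 was in 21.0% (17.7 to 24.7) of its 537 cells against 30.6% (28.4 to 32.7). Of the 537 cells, 301 were of the Gad2 class, where the shares were 11.0% (7.67 to 15.1) and 14.5% (11.8 to 17.7). They were 47.7% (38.1 to 57.5) and 51.1% (47.2 to 54.9) in the Slc17a8 class and 47.5% (31.5 to 63.9) and 45.4% (38.4 to 52.4) with both. With neither they were 10.5% (4.90 to 18.9) and 16.4% (11.9 to 21.7). The intervals overlapped in each of these classes.

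**Figure D4:**
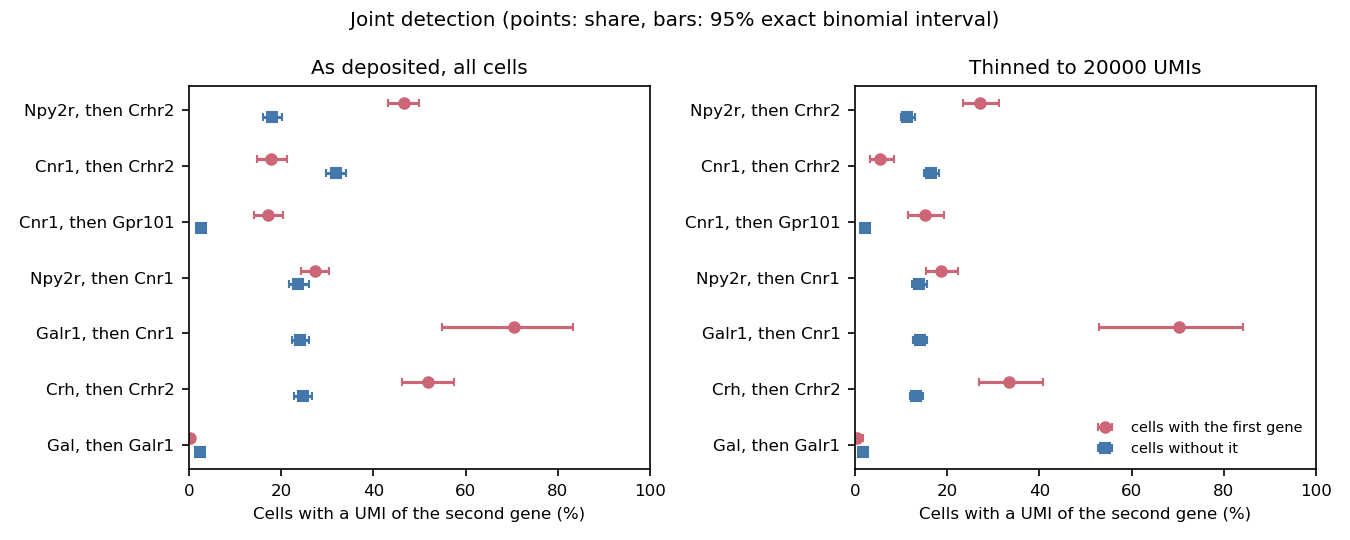
Percent of 10X cells with a UMI of the second gene among cells with (circles) and without (squares) a UMI of the first, with 95% exact binomial intervals, as deposited and after thinning to 20000 UMIs. Crhr2 is commoner in cells with Npy2r (46.6% against 18.1%) and with Crh (51.9% against 24.8%) and rarer in cells with Cnr1 (17.9% against 31.9%).

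Genes with the most similar pattern over the 10X cells were found by Pearson's r of log-normalized UMIs among 12520 genes detected in at least 5% of cells. All points of such an r share the depth of their cell. For Npy2r they were Slc17a8 (r = 0.39), Mgat4c (0.33) and Ntm (0.32), with r of 0.25, 0.18 and 0.24 over the 70 manual cells. For Crhr2 they were the estrogen receptor gene Esr1 (0.46), the orexin receptor gene Hcrtr2 (0.44) and Pgm2l1 (0.44), with 0.35, 0.52 and 0.26 in the manual cells. For Cnr1 they were the cerebellin gene Cbln4 (0.59), the neuregulin receptor gene Erbb4 (0.58) and Ldb2 (0.57), with 0.41, 0.50 and 0.37 in the manual cells. For Galr1 they were Satb1 (0.63), the calcitonin gene-related peptide gene Calca (0.62) and Nfib (0.59), and for Gpr101 Tmeff2 (0.45), Calb2 (0.41) and Cxcl14 (0.40). The highest r for Oprl1 was 0.19 (Ncdn) and for Crhr1 0.17 (Kcnip4), too weak to name a pattern.

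A list of 43 other genes of these systems was compared in the same way. Of 24 with enough UMIs, 4 were at least 2-fold higher in the Slc17a8 than in the Gad2 class and 2 lower, where 3.15% of all genes were called in each direction, with a median log2 ratio of -0.07 against -0.000208 for all genes. The higher genes were Mgll, which encodes the lipase that degrades the endocannabinoid 2-arachidonoylglycerol (162 against 37.3 CPM), Crh (13.9 against 6.15 CPM), and the mu and kappa opioid receptor genes Oprm1 (3.15 against 0.394 CPM) and Oprk1 (2.74 against 0.187 CPM). Oprm1 (146 and 21 UMIs) and Oprk1 (127 and 10 UMIs) reached the minimum only through the Slc17a8 class. Their place in this count was thus set by the minimum. The lower genes were Crhbp, which encodes the CRF binding protein (3.76 against 10.1 CPM), and Pdyn (25.6 against 66.9 CPM). The G protein and channel genes with enough UMIs, through which the receptors act, did not reach 2-fold in either direction (0 of 10), nor did the galanin gene (13.4 against 11.5 CPM). The channel gene Kcnj5 was under the minimum, with 21 and 4 UMIs (log2 ratio 2.60, 1.03 to 4.60).

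Of 27 list genes compared between the Tph2-low cells and the rest, 5 were higher and 5 lower, where 9.32% and 6.22% of all genes were, with a median log2 ratio of -0.09 against 0.18 for all genes. Penk (proenkephalin) was 162 against 0.964 CPM, Oprk1 22.1 against 1.19 CPM, Pnoc (the nociceptin precursor) 8.79 against 0.895 CPM, Npy1r 7.72 against 0.971 CPM and Oprm1 4.53 against 1.61 CPM. The lower genes were Gal, Mgll (17.6 against 90.5 CPM), Pdyn (12.5 against 49.9 CPM), Crh and Crhbp. Crh and Crhbp each had 3 UMIs in the Tph2-low cells, so that their log2 ratios of -3.64 (-5.92 to -2.09) and -3.13 (-5.41 to -1.58) are imprecise. The 33 Pnoc UMIs of the Tph2-low cells lay in 4 of the 131 cells, 25 of them in 1 cell, so that 3.05% (0.838 to 7.63) of these cells had Pnoc, against 4.26% of all cells.

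The third question was how the receptors differed among the manually sorted groups. All 70 cells had at least 2720 CPM of Tph2. The cut that defines the Tph2-low class was set on 10X UMIs and was not carried over to these full-length reads, so that no manual cell was put in or out of that class. Galr1 had 0 reads in all 70 cells. Crhr1 had 1 read, in a caudal Sert::cre cell (0.299 CPM).

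Crhr2 was present in every cell of the caudal Sert::cre group. Its 6 cells ranged from 64.0 to 248 CPM (median 87.8). In the other Sert::cre groups the median was 0, with reads in 2 of 10 dorsolateral cells (highest 32.9 CPM), 4 of 9 dorsomedial cells (highest 109 CPM) and 3 of 8 ventromedial cells (highest 27.9 CPM). The caudal P2ry1::cre cells also had a median of 0, a highest value of 32.8 CPM and reads in 3 of 10 cells, so that they did not overlap the caudal Sert::cre cells from the same region. The P2ry1::cre cells also had fewer genes detected (6809 to 8930 against 9078 to 10444 in the caudal Sert::cre cells), and the part of this in the receptor values was not tested. Npy2r::cre cells ranged from 0 to 154 CPM in the caudal group (median 8.65, reads in 7 of 10 cells) and from 0 to 114 CPM in the rostral group (median 0, 4 of 9 cells). Crh::cre cells ranged from 0 to 226 CPM (median 13.2, 4 of 8 cells).

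Npy2r went undetected in whole groups. It had 0 reads in all 9 dorsomedial Sert::cre cells and in all 10 caudal P2ry1::cre cells. It ranged from 0 to 126 CPM in the caudal Sert::cre cells (median 38.7, reads in 4 of 6 cells), from 0 to 209 CPM in the ventromedial cells (median 0, 3 of 8 cells) and from 0 to 2.38 CPM in the dorsolateral cells (median 0, 2 of 10 cells). Crh::cre cells ranged from 0 to 57.1 CPM (median 0, 3 of 8 cells). The P2ry1::cre cells shared the lack of Npy2r with the Met cells of the 10X table, and Met, singled out here after its values were seen, had reads in 9 of 10 P2ry1::cre cells (median 86.8 CPM) and in 2 of the 60 other manual cells.

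In the groups labelled by Npy2r::cre, Npy2r checks the label. Caudal cells ranged from 0 to 150.4 CPM (median 4.98, 7 of 10 cells with reads) and rostral cells from 0 to 9.40 CPM (median 1.97, 6 of 9 cells with reads). The 2 groups overlapped, and 6 of the 19 cells had no read of the gene that drives their Cre allele.

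Cnr1 and Gpr101 were scattered among the manual cells. Cnr1 had reads in 15 of 70 cells, with a median of 0 in all groups except the caudal Npy2r::cre cells (0 to 116 CPM, median 0.559, 5 of 10 cells). The highest Cnr1 values in the other groups were 74.0 CPM in the rostral Npy2r::cre, 56.3 in the ventromedial, 41.8 in the dorsomedial, 27.1 in the Crh::cre, 13.1 in the dorsolateral and 0.312 in the P2ry1::cre cells, and 0 in the caudal Sert::cre cells. Gpr101 had reads in 3 cells only, all from Npy2r::cre mice at postnatal day 87: 2 caudal cells at 112 and 2.27 CPM and 1 rostral cell at 8.73 CPM. The caudal cell with 112 CPM of Gpr101 was also the cell with the highest Cnr1 level, 116 CPM.

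Oprl1 had reads in 64 of 70 cells. Group medians ran from 33.2 CPM in the caudal Sert::cre cells (0 to 134) to 110 CPM in the rostral Npy2r::cre cells (7.39 to 235). In between were the P2ry1::cre (45.7, range 0 to 235), caudal Npy2r::cre (64.9, 0 to 155), dorsolateral (68.7, 0 to 154), ventromedial (70.5, 28.8 to 131), Crh::cre (95.2, 18.1 to 261) and dorsomedial cells (102, 12.4 to 172). All groups overlapped.

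**Figure D5:**
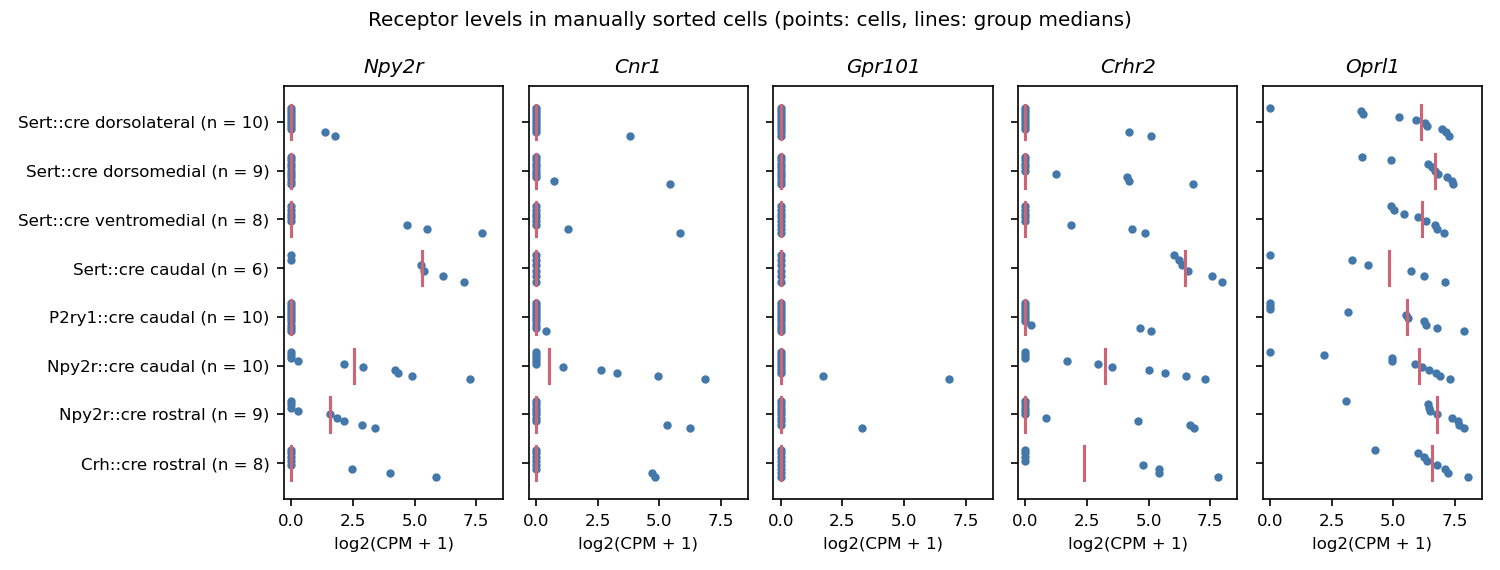
Levels of 5 receptor genes in each of the 70 manually sorted cells as log2(CPM + 1), with the median of each group as a line. All 6 caudal Sert::cre cells lie above every P2ry1::cre cell for Crhr2, Npy2r is 0 in all P2ry1::cre and dorsomedial Sert::cre cells, and Oprl1 spans similar ranges in all groups.

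Differences in mean log2(CPM + 1) were taken for 3 pairs of groups, over genes with a mean of at least 5 CPM, and are descriptions of these cells. Between caudal P2ry1::cre and caudal Sert::cre cells, Crhr2 differed by -5.79 (means 0.99 ± 2.04 and 6.79 ± 0.79, SD, n = 10 and 6) and Npy2r by -3.96 (0 in all P2ry1::cre cells against 3.96 ± 3.13), while Oprl1 differed by -0.24, less than the spread between cells (-1.12 without caudal Sert::cre replicate 3 and 0.30 without replicate 2). Over 9957 genes, 34.3% were at least 1 log2 unit lower in the P2ry1::cre cells and 10.4% higher, with a median of -0.46. Npy2r, at 0 in the P2ry1::cre cells, passed the minimum only through the caudal Sert::cre cells and could only be lower, so that no count of members is given against this background. Median Slc6a4 (serotonin transporter) was 845 CPM in the P2ry1::cre and 2516 CPM in the caudal Sert::cre cells. The summed astrocyte markers had a median of 0 (0 to 53.6) and 27.2 CPM (0 to 200.4), and the summed oligodendrocyte markers of 0 (0 to 85.8) and 43.4 CPM (0.279 to 268). Their part in the receptor values was not tested.

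Between ventromedial and dorsolateral Sert::cre cells, Npy2r differed by 1.93 (8 and 10 cells, means 2.24 and 0.31, pooled SD 2.18), or 1.15 without the ventromedial cell at 209 CPM. Crhr2 differed by 0.45 and Oprl1 by 0.75, both less than the spread between cells. Without ventromedial replicate 1 the Crhr2 difference was -0.05, and without dorsolateral replicate 2 that of Oprl1 was 0.16. Over 10042 genes, 19.7% were at least 1 log2 unit higher in the ventromedial cells and 11.5% lower.

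Between caudal and rostral Npy2r::cre cells, 13.1% of 10083 genes were at least 1 log2 unit higher and 12.3% lower. Npy2r drives the Cre allele of both groups, and Npy2r and Gpr101 passed the minimum only through the caudal cells. No count of members is therefore given against this background. Npy2r differed by 1.25 (2.59 ± 2.55 against 1.34 ± 1.32, n = 10 and 9), Crhr2 by 1.16 (3.26 ± 2.79 against 2.10 ± 3.03) and Oprl1 by -1.49 (5.15 ± 2.33 against 6.64 ± 1.46), each less than the SD pooled over cells. The Npy2r difference was 3.50 among postnatal day 77 cells (4 and 3 cells) and -0.13 among postnatal day 87 cells (6 and 6 cells), and 0.74 without the caudal cell at 150.4 CPM. Without the caudal cell at 154 CPM the Crhr2 difference was 0.72, and without caudal replicate 10 that of Oprl1 was -0.92. Cnr1 differed by 0.60 and Gpr101 by 0.49, and these fell to 0.05 and -0.18 without caudal replicate 10.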

How the data were processed

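Single neurons were sorted by the authors from dissociated dorsal raphe. The 10X cells were prepared with the Chromium 3′ v3 kit and the manually sorted cells with SMART-Seq v4, which does not mark strand. Both deposited tables hold raw whole-number counts per gene (UMIs per 10X cell, reads per manual cell). The submitters' processing notes name STAR 2.5.4, Cell Ranger 3.0.2, R 3.5.3 and mm10. Levels are counts per 1000000 (CPM) in what follows. The 10X table had been filtered by the authors to Pet1 neurons. Manual libraries were sequenced by the authors on 2 kinds of instrument, and the labels do not say which cell went on which.

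From these counts, CPM was computed with each cell's total. Levels of a class are summed UMIs over summed totals with exact Poisson intervals, ratios have conditional binomial intervals, and shares have Clopper-Pearson intervals, all at 95%. Scrublet (scanpy 1.11.5, expected rate 5%) marked 14 of the 10X cells as doublets, of which 8 were in the class with both transmitter genes. They were kept in the main values. Thinning drew 20000 UMIs per cell and left out 53 shallower cells. Manual values are log2(CPM + 1). A gene absent from a group was set to a floor of 3 counts for a fold. Python 3.11.15 and edgeR 4.0.16 (TMM library sizes only) were used. The ratio and difference steps were checked on simulated counts. No test between groups was made, because no animal is named for any cell. Single manual cells far from the rest of their group were marked by Dixon's criterion. Named genes were the members, the pathway list, driver and class genes, and the 3 genes most like each member. The members, lists, classes and comparisons were chosen with earlier results of these data known. Pyy, Npy6r, Galp, Galr2, Galr3, Cnr2, Gpr55 and Ucn3 were not analysed here in the 10X cells. Sox14 (17 cells), Foxa1 (4) and Ecel1 (19) marker sets were too small to use. Alternatives covered the class cuts, thinning, doublets, depth, barcode set, averaging, pseudocount, library size, age and leaving out each manual cell.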

Additional observations from a re-analysis of the deposited data

Results flagged for a closer look

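Within the 8 manual groups, 9 values in 32 tests of a member within a group stood apart from the other cells by Dixon's criterion at the 95% level on the log2(CPM + 1) scale. Chance flags about 1 group in 20, and a group in which all other cells are at 0 is always flagged, which holds for 4 of the 9.

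For Cnr1 these were dorsolateral Sert::cre replicate 1 (13.1 CPM, all other cells at 0), dorsomedial replicate 6 (41.8 CPM, next 0.656), ventromedial replicate 6 (56.3 CPM, next 1.44) and P2ry1::cre replicate 5 (0.312 CPM from 2 reads, all others at 0). For Gpr101 they were caudal Npy2r::cre replicate 10 (112 CPM from 589 reads, next 2.27) and rostral Npy2r::cre replicate 6 (8.73 CPM from 13 reads, all others at 0). For Crhr1 it was caudal Sert::cre replicate 5 (0.299 CPM, 1 read, all others at 0).

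For Oprl1 the cells stood apart at the low end: dorsolateral Sert::cre replicate 2 was at 0 CPM (next 12.0), and rostral Npy2r::cre replicate 3 at 7.39 CPM (next 83.3).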

How the results depend on the processing

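Across 106 alternatives of the 14 class ratios in the 10X table, 25 moved a log2 ratio beyond its counting interval and 3 changed its sign. All 3 were of Oprl1 in the Slc17a8 against the Gad2 class, whose interval spans 0 (main value -0.02, first barcode set 0.05, thinned 0.01, mean over cells 0.00). For the Slc17a8 against the Gad2 class, doubled cuts gave 2.35 for Npy2r, 0.11 for Cnr1 and 0.81 for Gpr101, and halved cuts 2.60 for Gpr101. Thinning gave 0.83 for Cnr1, 2.82 for Gpr101 and 2.96 for Crhr2. The first barcode set alone gave 3.49 for Npy2r, 1.13 for Cnr1 and 3.51 for Gpr101, and the second 2.32 for Npy2r and 0.31 for Cnr1. The mean CPM over cells gave 0.95 for Cnr1. For the Tph2-low against all other cells, Npy2r was 0.29 with halved cuts, 1.06 without cells under 30000 UMIs, 1.52 in the first and 0.23 in the second barcode set, and Cnr1 was 2.89 thinned and 2.86 as a mean over cells. Crhr2 stayed at 0 UMIs in those cells except with doubled cuts (-2.62), and its bound was -3.54 with halved cuts, -3.15 thinned, -2.48 without shallow cells (37 cells left), -2.91 in the first and -2.83 in the second barcode set; these bounds move with the number of UMIs counted. Leaving out doublets moved none of the 14. Galr1 and Crhr1 gave no value in some alternatives, since both classes were at or under the floor or one was at 0.

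Of 257 alternatives of 11 manual differences, the caudal against rostral Npy2r::cre difference of Npy2r turned at postnatal day 87 (-0.13) and moved at day 77 (3.50). In 12 other alternatives a difference of under 1 log2 unit changed sign: 8 of Oprl1 between P2ry1::cre and caudal Sert::cre cells (0.02 to 0.70), Crhr2 between ventromedial and dorsolateral cells at day 63 (-0.65) and without ventromedial replicate 1 (-0.05), Oprl1 in that pair at day 90 (-0.33), and Gpr101 between caudal and rostral Npy2r::cre cells without caudal replicate 10 (-0.18). For P2ry1::cre against caudal Sert::cre cells, pseudocounts of 0.1 and 10 CPM gave -6.16 and -1.89 for Npy2r and -8.33 and -3.20 for Crhr2. The P2ry1::cre comparison had no age with 3 cells in both groups. No paired analysis was possible because replicate numbers name cells and no test was made.

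Of 70 alternatives of 35 shares of cells, 53 moved the share, 30 of them when 2 UMIs were required and 23 after thinning. Joint detection is given as the difference in percentage points. Of 136 alternatives of 21 pairs, 42 changed the sign of the difference. In 86, which partly overlap with these, the alternative took the share among cells with the first receptor outside its main interval. Where the main intervals did not overlap and at least 20 cells had the first receptor, the sign changed in 8, for Npy2r with Crhr2 (-0.142) and Oprl1 (-1.43) within the class with both, for Galr1 with Cnr1 within the Tph2-low cells (-5.52), for Galr1 with Crhr1 at 2 UMIs (-0.0430), and for Crhr2 with Cnr1 and with Gpr101 within the Gad2 class (5.50 and 4.19) and the class with neither (1.52 and 3.16). The cause of these changes was not tested.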

Other observations

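Npy5r, a further neuropeptide Y receptor, was below the UMI minimum of the comparisons. It held 6.66 CPM in the Tph2-low cells against 0.357 CPM in all other cells (log2 ratio 4.22, 3.46 to 4.95), on 72 UMIs in all. In the Slc17a8 and Gad2 classes it was 0.626 and 0.112 CPM. Penk, with 735 UMIs in 98 cells of the 10X table, had reads in 3 of the 70 manual cells.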
